A study of Drosophila melanogaster with 3 samples.

Results

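The peaks described here are those of the CG15514-eGFP chromatin profile whose summits lie in an annotated exon, coding or untranslated, away from promoters. They were chosen from the authors' thresholded list on genome build dm6 by 3 criteria. The signal, the peak height the authors set against a control, had to be under 5000; the summit had to lie in an exon of any transcript; and the summit had to lie more than 500 bp from every annotated transcription start site (TSS). The rule found 246 peaks among the 8708 of the list (2.83%). The study was a chromatin immunoprecipitation with sequencing (ChIP-seq) on whole Drosophila melanogaster embryos of 0 to 24 hours, males and females pooled. The embryos came from 1 transgenic line that carries CG15514 joined at its C-terminus to eGFP, a green fluorescent protein used as a tag, and chromatin was recovered with an antibody against GFP. The 3 samples are biological replicates of 1 group, with no second genotype, treatment or stage. Signal and position chose these peaks, so both are given as a description, without a test.

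ChIP-seq recovers the DNA that crosslinks to a protein, directly or through a partner, and the summit is the position of highest recovery in a peak. In flies, many transcription factors and insulator proteins are found at promoters and in introns, where regulatory DNA is common, while exons are under selection for the protein or RNA they encode. An untranslated region (UTR) is the transcribed part of a messenger RNA before or after the coding sequence. An exon of one transcript can be intron in another transcript of the same gene, so that an exon peak need not lie in sequence that every mature RNA keeps. Sonication left fragments of 200 to 800 bp, so a summit can lie some distance from the bases that were bound.

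The letters under the exon summits are shown first, because the short element GAACNAG exceeded its share at intron peaks by the widest margin of the 12 motifs searched. The element, called the GAAC element here, was found in earlier work on these same data, so its presence in the list is no independent result. Matches were sought on both strands and had to lie wholly within 100 bp of the summit. The GAAC element occurred at 42 of the 246 exon peaks and at 9.59% of all 8708 peaks. In 8 of the 42, GAAC was followed 2 bases later by its reverse complement GTTC, a palindrome; all 8 are shown, then 4 of the strongest other matches. Each line is the Release 6 (dm6) reference sequence, 5′ to 3′ on the strand named, with the element in capitals.
CG8191 (3′ UTR, chrX:15733340-15733366, plus strand): ccagatctgtGAACCAGttcagattgt
CG42353 (3′ UTR, chrX:16094147-16094173, plus strand): ctcgtttgatGAACCAGttcttattgt
CG5126 (coding exon, chr2L:1182793-1182819, plus strand): tttcggcgcaGAACCAGttccaacatt
Mco1 (coding exon, chr2L:9424714-9424740, plus strand): gatacccttgGAACTAGttccccatca
Rpt6R (coding exon, chr3R:30582816-30582842, plus strand): atgaatttctGAACCAGttccgaccct
dy (3′ UTR, chrX:11770905-11770931, minus strand): tgtgcgactgGAACTAGttccgcggac
mamo (3′ UTR, chrX:13863160-13863186, minus strand): atcaatttgaGAACTAGttctcaaaat
CG14667 (coding exon, chr3R:5375756-5375782, plus strand): ggcgggatatGAACCAGttcttcccct
lncRNA:Vinr (non-coding exon, chrX:12751230-12751256, plus strand): tgtgagcagaGAACAAGagcggtttgc
sbm (coding exon, chrX:14588683-14588709, plus strand): gaaccagtgcGAACCAGtaaaccggag
CG12502 (coding exon, chr3L:868970-868996, minus strand): atccggagcgGAACCAGcccccgaaag
tral (3′ UTR, chr3L:12519562-12519588, minus strand): caaggcgttgGAACCAGccatttacac

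A further set shows matches to letters known from insulator proteins and from the DRE, which DREF binds. The CTCF letters, AGNNGGCGC, occurred at 16 exon peaks and at 3.36% of all peaks. The Su(Hw) letters, GCATACTTT, occurred at 5 exon peaks and at 0.620% of all peaks. The DRE, TATCGATA, occurred at 3 exon peaks and at 7.54% of all peaks; each DRE also contains CGATA, the short letters searched for BEAF. The match is in capitals in each line, and the sequence is again the Release 6 reference.
Pde1c, CTCF (coding exon, chr2L:11816558-11816586, minus strand): cggagccggcAGATGGCGCtgcggcctaa
CG12502, CTCF (coding exon, chr3L:868953-868981, minus strand): agcccccgaaAGGCGGCGCcactggggac
ush, CTCF (5′ UTR, chr2L:490258-490286, minus strand): ttgggccactAGTTGGCGCtttcacaccg
Hr4, CTCF (3′ UTR, chrX:2006000-2006028, minus strand): ctctaaatacAGGTGGCGCcactgaggaa
ush, Su(Hw) (5′ UTR, chr2L:490231-490259, minus strand): cgcttgcaagGCATACTTTtaggctttcc
CG7778, Su(Hw) (3′ UTR, chr2L:8350662-8350690, plus strand): cgaggcggtgGCATACTTTtaggccattt
E2f1, Su(Hw) (5′ UTR, chr3R:21626676-21626704, plus strand): ctatattgtaGCATACTTTtaagcactgc
fw, DRE (coding exon, chrX:11993466-11993493, plus strand): tagatatcgaTATCGATAtagatatcga
CG5151, DRE (3′ UTR, chr3L:16139323-16139350, plus strand): tgcaattggtTATCGATAacttcagttt
The peak in the 5′ UTR of ush, which encodes a cofactor of GATA factors, held the CTCF and the Su(Hw) letters side by side. The coding-exon peaks of CG12502 and CG14667 held both the GAAC element and the CTCF letters, and these were the 2 exon peaks with both. A match describes the letters and does not show which protein was bound there.

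Exon peaks fell into 4 classes by the part of the gene under the summit. The 3′ UTR held 98 of them (39.8%), exons of non-coding RNA genes 54 (22.0%), the 5′ UTR 52 (21.1%) and coding exons 42 (17.1%). All 54 summits of the non-coding class lay in genes annotated as ncRNA, 49 named as long non-coding RNAs and 5 as antisense RNAs. The peaks had 228 host genes, of which 184 code for proteins. Only 6 summits lay in exons of more than 1 gene. CG8191 was such a case, since its 3′ UTR summit also lay in an exon of CG12379.

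The room each class takes in the genome was measured with the same order of classes, so that each base away from promoters counted once. Coding exons away from promoters covered 17.5 Mb and held 2.40 summits per Mb, whereas introns covered 52.8 Mb and held 41.4 per Mb. The 3′ UTR held 14.5 summits per Mb over 6.77 Mb. The 5′ UTR held 49.9 per Mb over 1.04 Mb, and non-coding exons held 49.2 per Mb over 1.10 Mb. The 3 replicate lists, each taken to its 8708 strongest entries without the 202 strongest, gave 2.99 ± 0.518 summits per Mb in coding exons (SD, n = 3). The same lists gave 14.7 ± 1.13 in the 3′ UTR, 57.8 ± 7.07 in the 5′ UTR, 48.3 ± 7.46 in non-coding exons and 40.5 ± 1.26 in introns. Coding exons were thus the class with the fewest summits for their length among these 5, in the thresholded list and in each replicate, with 3′ UTRs next. The 5′ UTR had a higher density than introns in each replicate, at 63.3, 60.4 and 49.9 per Mb against 40.9, 39.1 and 41.5. Non-coding exons were also higher in each replicate, at 56.5, 46.5 and 41.9, but in replicate 3 by little.

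The peaks differed little from other peaks away from promoters in height. Their signal ran from 119.47 to 3580.8 with a median of 183.55, against medians of 191.43 in 2187 intron peaks, 185.27 in 750 intergenic peaks and 266.46 in 5323 promoter peaks. The class medians lay close together, at 175.85 in the 5′ UTR, 181.66 in non-coding exons, 183.92 in coding exons and 191.57 in the 3′ UTR. Of the 8506 peaks under the signal limit, which removes the 202 strongest, 798 ranked among the 1000 strongest of the list, and 13 of these were exon peaks.

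A peak was called supported in a replicate where that replicate had a summit within 100 bp among its 8708 strongest entries. Of the 246 exon peaks, 125 were supported in all 3 replicates, or 50.8% with a 95% Clopper-Pearson interval of 44.4 to 57.2%, and the share over all thresholded peaks was 64.2%. The share was 52.0% in intron peaks, 53.5% in intergenic peaks and 70.0% in promoter peaks, so the exon peaks resembled the other peaks away from promoters. Replicate 1 supported 170 of the 246, replicate 2 supported 183 and replicate 3 supported 217. Support in all 3 was found for 58.2% of 3′ UTR peaks, 50% of 5′ UTR peaks (26 of 52), 47.6% of coding-exon peaks and 40.7% of non-coding-exon peaks, with intervals that overlap. Because the thresholded list was made from the replicate lists, these shares describe the list and test nothing. The intervals cover counting error over peaks alone, and the lists hold no read counts from which a depth could be given.

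Support followed height. All 13 exon peaks ranked 203 to 1000 and 55 of the 56 ranked 1001 to 4000 were supported in all 3 replicates, but 57 of the 177 ranked below 4000 were (32.2%), against 32.5% of intron peaks in that range. In that lowest range, 44.6% of 3′ UTR peaks (33 of 74) and 15.4% of coding-exon peaks (4 of 26) had support in all 3. The 95% intervals of these shares, 33.0 to 56.6% and 4.36 to 34.9%, overlap slightly. Support was absent in all 3 replicates for 3 exon peaks, in the 3′ UTRs of CG5877 and Hex-A, a hexokinase gene, and in the 5′ UTR of CG14073. It was likewise absent for 97 of all 8708 peaks and 30 of the 2187 intron peaks. The CG5877 peak had entries at ranks 9506, 9810 and 9452, just below the limit, and the CG14073 peak had no entry in any replicate list.

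The strongest exon peak lay in a coding exon of nahoda at chr2R:22911418-22912392. Its signal was 3580.8, and it ranked 226 in replicate 1, 251 in replicate 2 and 236 in replicate 3. The next lay in lncRNA:Vinr, a long non-coding RNA gene, at chrX:12750838-12751692, with a signal of 2391.4 and ranks of 301, 300 and 274. In both cases the replicates placed the peak within a narrow range of ranks among their 30000 entries. The 3′ UTR peak of CG8191 at chrX:15733175-15733607 had a signal of 1916.6 and ranked 300, 341 and 337. The coding-exon peak of sbm, an amino acid transporter gene, at chrX:14588432-14589002 had a signal of 1867.0 and ranked 332, 359 and 319. Only 17.9% of the sbm interval was exonic, its summit lay 22 bp from an exon edge, and another summit lay 208 bp away. These 4 strongest peaks all held the GAAC element, and the nahoda peak held 2 matches. All 4 ranked between 203 and 1000. In that range the element was at 16.5% of all peaks, 25.9% of intron peaks and 27.7% of intergenic peaks.

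Further strong peaks lay in coding exons of well-studied genes. The peak in per, whose product represses its own transcription in the circadian clock, had a signal of 1334.1 and ranked 431, 424 and 432. A weaker summit of signal 143.53 shared the same interval, chrX:2690347-2690835, and ranked 4563 in replicate 2 with no entry in the other replicates. The peak in otp, a homeobox gene, had a signal of 1307.4 and ranked 544, 410 and 410. The peak in Pde1c, which encodes a cyclic nucleotide phosphodiesterase, had a signal of 1001.2 and ranked 594, 568 and 556. The otp and Pde1c summits each had 2 CTCF matches, and none of the 9 otp or 9 Pde1c transcripts skips the exon. The coding-exon peak of CG12502, with a signal of 627.39, ranked 1049, 1109 and 1058.

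The strongest peaks of the other classes were as follows. In the 3′ UTR they were CG8191, then by, which encodes the adhesion protein tensin, with a signal of 799.03 and ranks of 1002, 648 and 706. APC7, which encodes a subunit of the anaphase-promoting complex, followed with 692.27 and ranks of 1005, 1080 and 824. The inc peak, in a gene for an adaptor of the Cul3 ubiquitin ligase, had 566.01 and ranked 1853, 808 and 1340, a wider spread than in the stronger peaks. In the 5′ UTR the strongest was in baz, the fly Par-3 of cell polarity, with 712.73 and ranks of 1058, 1044 and 795. It was followed by CG3829 with 644.31 and by Pdp1, a bZIP factor of the circadian clock, with 551.45. The Pdp1 peak ranked 2586 in replicate 1 but 830 and 1261 in the others. In non-coding exons, lncRNA:Vinr was followed by lncRNA:CR46035 with 1269.5, which lies in an intron of osa, a chromatin remodelling gene, then lncRNA:CR43126 with 805.27 and lncRNA:CR44619 with 535.30.

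All 20 of the strongest exon peaks were supported in all 3 replicates. Such support was common at this height, at 98.9% of all peaks ranked 203 to 1000 and 94.8% of those ranked 1001 to 4000. The lowest rank any of the 20 took in a replicate was 2673. That rank was taken in replicate 1 by the 3′ UTR peak of CG7872, which ranked 1389 and 1126 in the others. Among the 20, 11 lay on the X chromosome, which held 25.6% of the exon peaks and 18.5% of all thresholded peaks.

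**Figure D1:**
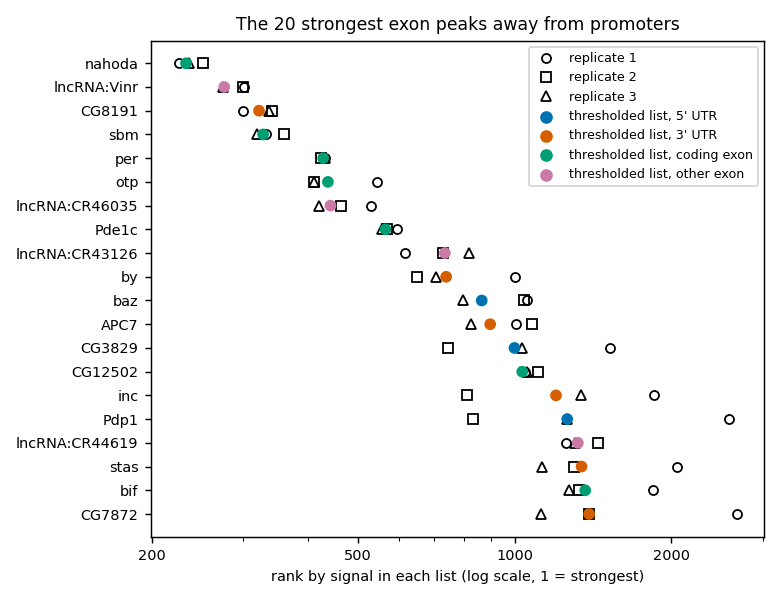
Rank by signal (log scale, 1 is the strongest) of the 20 strongest exon peaks in each replicate list (open symbols) and in the thresholded list (filled, coloured by exon class). Ranks spread more between replicates towards the weaker peaks, with replicate 1 lowest for CG7872 at 2673.

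A total of 14 host genes held 2 or more exon peaks and 5 held 3 or more. lncRNA:CR43334, at chr3L:628435-643900, held 7, at ranks 4459 to 8665 of the thresholded list. The annotation also places mir-ban, the bantam microRNA, at chr3L:642208-642288 inside this gene. The strongest of its 7 peaks had a signal of 231.22 and ranked 3560, 5718 and 4869 in the replicates, and the weakest had 119.60 and ranked 9310 in replicate 1 and 6604 in replicate 3, with no entry in replicate 2. None of the 7 held the GAAC element or the CTCF letters. baz held 3 peaks in the 5′ UTR, with signals of 712.73, 210.31 and 171.00. bif, which encodes an actin-associated protein, held 3 in coding exons with 526.66, 165.42 and 148.03, and the intervals of the first pair overlap. lncRNA:CR44603 held 3 with 323.14, 247.33 and 196.52. CAP, which encodes an adaptor protein with SH3 domains, held 3 in 5′ UTRs with 223.94, 222.34 and 128.30, each an exon of 1 of its 28 transcripts.

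The classes differed in where in the host gene the summit lay, which the class in part fixes. Distances to the nearest TSS of any gene had a median of 1268.5 bp and ran from 508 to 17329 bp. The medians were 815 bp in the 5′ UTR, 1148 bp in non-coding exons, 1537 bp in coding exons and 1647 bp in the 3′ UTR. The 3′ UTR summit of mamo, a zinc-finger gene, was the one 17329 bp away. Summits in the 3′ UTR lay close to the end of the host transcript, at a median of 226 bp, and 71 of 98 (72.4%) were within 500 bp of a transcript end. In the 3′ UTR class, the nearest TSS belonged to the host gene in only 46.9% of cases, against 86.5% in the 5′ UTR class.

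**Figure D2:**
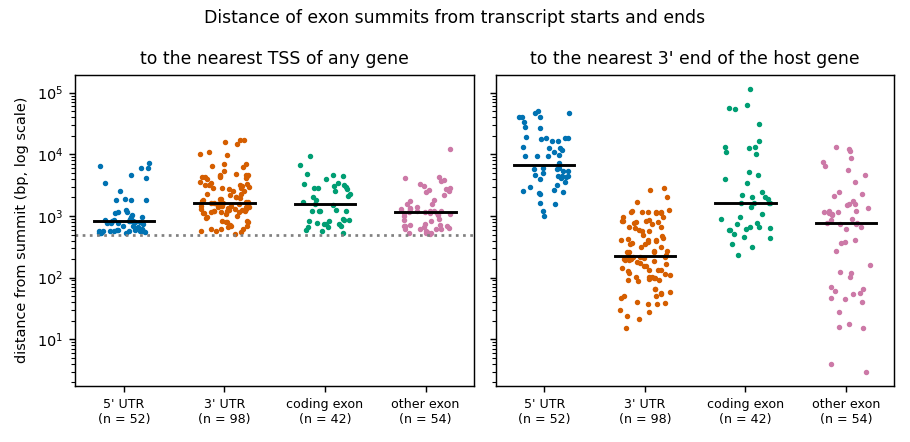
Distance in bp (log scale) from each exon summit to the nearest TSS of any gene (left, dotted line at the 500 bp limit) and to the nearest 3′ end of its host gene (right), by exon class, with lines at the medians. 3′ UTR summits sit nearest to the host's end, with a median of 226 bp, and 5′ UTR summits nearest to a TSS, with a median of 815 bp.

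Many exon summits were exonic only in some transcripts. The summit lay in an exon of every host transcript in 122 of 246 cases (49.6%), with 76.2% in coding exons and 28.8% in the 5′ UTR. In the 5′ UTR class, 31 of 52 summits (59.6%) were intronic in another transcript of the same gene, against 19.5% of all exon peaks. An intron of another gene covered 33 of the 246 exon summits, 14 of them in the non-coding class, and some of these were also intronic in another transcript of their own host gene. The whole interval was exonic in 157 peaks (63.8%). Coding-exon peaks had the lowest such share, 42.9%, and their summits lay at a median of 125.5 bp from the nearest exon edge.

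The host gene also had a promoter peak in 150 of 246 cases (61.0%). The share was 88.5% in the 5′ UTR class, 62.2% in the 3′ UTR class, 59.5% in coding exons and 33.3% in non-coding exons. The share over all genes was not computed, so no excess over genes in general can be read from these values. A promoter summit lay within 2000 bp of 63.5% of 5′ UTR summits and of 28.6% of 3′ UTR summits. Another summit of any kind lay within 1000 bp of 57.7% of 5′ UTR summits and of 15.3% of 3′ UTR summits. Such a neighbour was thus more common at 5′ UTR peaks, with 30 of 52 and an interval of 43.2 to 71.3%. At 3′ UTR peaks it was 15 of 98, with an interval of 8.83 to 24.0%, so most stood alone at that distance. No such share was computed for intron or intergenic peaks. The classes also differ in TSS distance, with medians of 815 bp in the 5′ UTR and 1647 bp in the 3′ UTR. The part of this in the difference was not tested.

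The X chromosome held 63 of the 246 exon peaks (25.6%, 95% interval 20.3 to 31.5%), while it has 17.6% of the length of the arms and 19.1% of the exon sequence away from promoters. Per Mb of that exon sequence, X had 12.5 summits and the autosomes 8.56. The share on X was 23.5%, 23.1% and 27.3% among the exon summits of the 3 replicate lists, against 20.9%, 21.4% and 21.2% among their intron summits, so the replicates did not overlap between the classes. By class, X had 20.7 summits per Mb in the 3′ UTR against 12.6 on the autosomes, and 36.3 against 51.5 in non-coding exons, the reverse order. The X values rest on 32 summits in the 3′ UTR and only 6 in non-coding exons, so the reverse order is uncertain. The other arms held 40 exon peaks on 2L, 42 on 2R, 43 on 3L and 58 on 3R. Chromosome 4 held 0 of 246, with a 95% interval of 0 to 1.49%, and it has 1.01% of the length.

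The GAAC element occurred at 17.1% of exon peaks (42 of 246, 95% interval 12.6 to 22.4%). It occurred at 8.23% of intron peaks (7.11 to 9.46%), 8.13% of intergenic peaks and 7.55% of promoter peaks. Windows of the same length centred 400 bp to either side of the summit held it in 5.28% at exon peaks and 6.42% at intron peaks. Among the classes, the element was at 14 of 42 coding-exon summits (33.3%, 19.6 to 49.5%), 17 of 98 in the 3′ UTR (17.3%), 7 of 54 in non-coding exons (13.0%) and 4 of 52 in the 5′ UTR (7.69%). The flanks of the coding-exon summits held it in 3.57% and those of the 5′ UTR summits in 7.69%, the same share as at the 5′ UTR summits themselves.

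**Figure D3:**
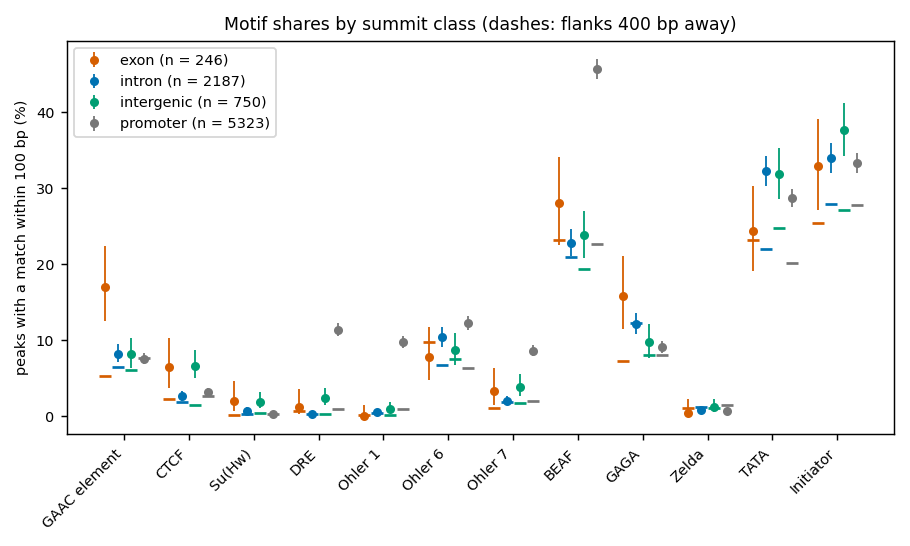
Share of peaks (%) with a match to each of the 12 motifs within 100 bp of the summit, for exon, intron, intergenic and promoter peaks; bars are 95% Clopper-Pearson intervals and dashes are the flanks 400 bp away. The GAAC element is at 17.1% of exon peaks and under 10% in the other groups, while the DRE and Ohler 1 are mostly at promoters.

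The replicate lists gave the same order. Of their exon summits, 15.2% in replicate 1 (42 of 277), 15.3% in replicate 2 (43 of 281) and 16.8% in replicate 3 (40 of 238) held the element. Of their intron summits, 8.74%, 8.81% and 7.97% held it. The lowest exon share was above the highest intron share, and the difference was 7.25 ± 1.37 percentage points (SD, n = 3), higher in 3 of 3 replicates. Exon and intron ranges were also apart for every other motif searched but Zelda. The exact two-sided permutation test, which flips the sign of each replicate's difference, gave p = 0.25, the smallest that 3 replicates allow, and 0.273 after Benjamini-Hochberg adjustment over 12 motifs, so the design cannot pass a threshold of 0.05. The replicate lists overlap with the thresholded list made from them and are not an independent sample. By class the replicates gave 27.7 ± 2.88% in coding exons, 18.4 ± 1.01% in the 3′ UTR, 9.84 ± 4.71% in non-coding exons and 6.56 ± 0.922% in the 5′ UTR.

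**Figure D4:**
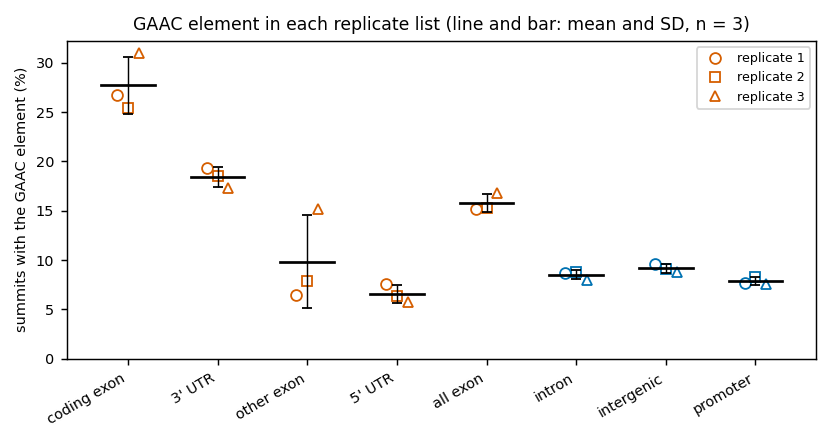
Share of summits (%) with the GAAC element in each replicate list, by class; symbols are the 3 replicates, lines and bars the mean and SD. Coding-exon and 3′ UTR summits lie above intron, intergenic and promoter summits in every replicate, 5′ UTR summits lie below the intron mean, and non-coding exons spread widely.

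The element was concentrated near the summit. Its median distance from the summit was 29 bp, and 29 of the 42 peaks had their nearest match within 50 bp. In bins of 50 bp, 7.72% of exon peaks had a match in the bin just before the summit and 4.88% in the bin just after it, while intron peaks showed only a low rise there. The fifth base was C in 21 of the 42 nearest matches, T in 11, A in 5 and G in 5. The match was on the strand of the host gene in 23 cases and on the opposite strand in 19, so neither strand dominated. The palindromic form was at 3.25% of exon peaks, 4 in coding exons and 4 in 3′ UTRs, against 1.55% of intron peaks and 1.84% of all peaks.

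**Figure D5:**
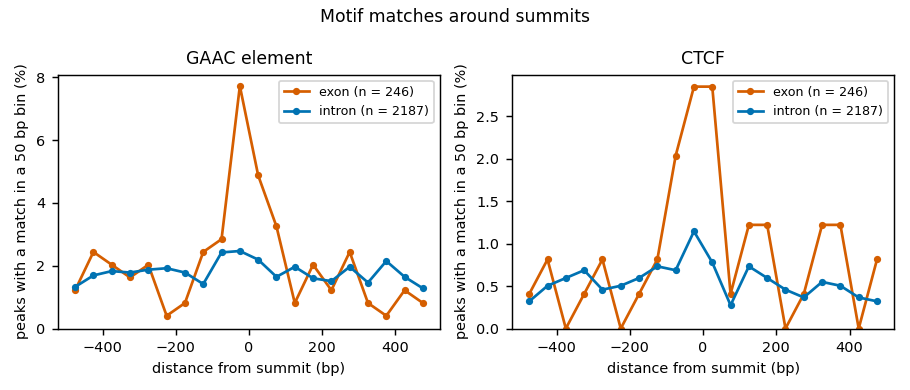
Share of exon and intron peaks (%) with a match to the GAAC element (left) or the CTCF letters (right) in each 50 bp bin around the summit, with distance in bp in genome direction. For the GAAC element the exon curve reaches 7.72% just before the summit.

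The comparison with introns was also made within ranges of height. Among peaks ranked 203 to 1000, 30.8% of exon peaks (4 of 13) and 25.9% of intron peaks held the GAAC element. Among those ranked 1001 to 4000 the shares were 16.1% and 7.82%, and among those ranked below 4000 they were 16.4% and 7.12%. Base composition moved with the exon class too, since the median G and C content within 100 bp of the summit was 41.8% in exon peaks, 52.2% in coding exons and 36.8% in intron peaks. In windows with under 40% G and C the element was at 15.5% of exon peaks and 5.83% of intron peaks. In windows with 40% or more it was at 18.2% and 13.0%, with overlapping intervals of 12.2 to 25.5% and 10.7 to 15.7%. The difference was thus larger in the windows poor in G and C; whether base composition contributes to it was not tested further.

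The CTCF letters occurred at 6.50% of exon peaks (16 of 246, 3.76 to 10.3%), 2.61% of intron peaks, 6.67% of intergenic peaks and 3.14% of promoter peaks. Flanking windows of exon peaks held them in 2.24%. The exon share was therefore like the intergenic one and above the intron one. In the replicates, the exon shares were 5.78%, 6.76% and 5.46% and the intron shares 2.91%, 3.14% and 2.92%, which do not overlap. The same held for every motif searched but Zelda. For the CTCF letters the difference was 3.01 ± 0.550 percentage points (exact permutation p = 0.25, adjusted 0.273, n = 3). By class, 11.9% of coding-exon peaks, 6.12% of 3′ UTR peaks, 5.77% of 5′ UTR peaks and 3.70% of non-coding-exon peaks held them. Of the 16, 13 were in windows with 40% or more G and C, where the share was 9.09% against 4.80% in introns; in windows with under 40% it was 2.91% against 1.51%. The intervals overlap in both ranges, at 4.93 to 15.0% against 3.37 to 6.61% and at 0.605 to 8.28% against 0.948 to 2.28%. The part of base composition in this difference was not tested.

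The DRE and the Ohler letters, known from fly promoters, and the BEAF letters were less frequent at exon peaks than at promoter peaks. The DRE was at 1.22% of exon peaks and 11.4% of promoter peaks. Ohler 1 (GGTCACAC) was at 0 of 246 exon peaks (95% interval 0 to 1.49%) and at 9.75% of promoter peaks. Ohler 7 (CAGCNCTG) was at 3.25% of exon peaks, 8.64% of promoter peaks, 1.97% of intron peaks and 3.87% of intergenic peaks. The strongest exon peaks with it were those of otp, nocte and JIL-1, a histone kinase gene. Ohler 6 (GTATNTTT) was at 7.72% of exon peaks, 10.4% of intron peaks, 12.3% of promoter peaks and 9.76% of the flanks of exon peaks. Its exon share was thus no higher at summits than beside them. CG14440, Madm and dop had the strongest exon peaks with it. The exon share was 3.65% (5 of 137) among the exon peaks supported in replicates 1 and 2, leaving out replicate 3. In the stronger 50% of the list it was 3.80%. The BEAF letters (CGATA) were at 28.0% against 45.7% of promoter peaks and 22.8% of intron peaks.

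Over all exon peaks, the remaining letters differed from introns by fewer percentage points than the GAAC element, or in the opposite direction. The TATA letters (TATAAA) were at 24.4% of exon peaks and 32.3% of intron peaks, and the replicate means were 21.3 ± 1.63% and 30.9 ± 1.06%. By class TATA ranged from 11.9% in coding exons to 37.0% in non-coding exons. The GAGA letters (GAGAGA) were at 15.9% of exon peaks and 12.1% of intron peaks, and their flanks at 7.32% and 12.3%. By class GAGA was at 30.8% in the 5′ UTR (16 of 52, flanks 9.62%), 14.8% in non-coding exons, 12.2% in the 3′ UTR and 7.14% in coding exons. The Su(Hw) letters were at 2.03% of exon peaks (5 peaks), 0.732% of intron peaks and 1.87% of intergenic peaks. The Initiator letters (TCAGT) were at 32.9% and 34.0%, and the Zelda letters (CAGGTAG) were at 1 exon peak, in the 3′ UTR of CG7872. For 11 of the 12 motifs the exon and intron shares of the 3 replicates did not overlap, each with an exact permutation p of 0.25, and for Zelda they did, with p = 0.75.

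The host genes were set against lists of genes with known roles, chosen with earlier results of these data known. Of 13945 protein-coding genes, 184 held an exon peak, or 1.32%. Among 88 regulators of embryonic patterning and tissue fate, 5 did (5.68%). They were pb, a Hox gene (376.61 in a coding exon), Mef2 of muscle (321.22 in the 5′ UTR), sd, the TEAD factor (261.34 in the 3′ UTR), pros of neural precursors (241.74 in the 3′ UTR) and jing, a zinc-finger gene (136.83 in a coding exon), each value being the peak's signal. The peaks of Mef2 and pros held the CTCF letters. In pros, the CTCF match and an Ohler 7 match share 1 base.

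Among 47 RNA-binding and post-transcriptional regulators, 4 held an exon peak (8.51%), all in the 3′ UTR. The tral peak, in a gene of RNA granules, had a signal of 475.78 and ranked 1721, 1631 and 1692 in the replicates. The peak of elav, a neuronal RNA-binding protein gene, had 269.72 and ranked 7661, 7203 and 2408. The other peaks were in exu, needed to localise bicoid RNA, with 183.99, and fne, a relative of elav, with 145.77. The 4 peaks differed in stability, since tral kept a narrow range of ranks and fne was among the 8708 strongest entries in replicate 3 alone.

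Among 61 neuronal and synaptic genes, 3 held an exon peak (4.92%), namely scrib with 274.88 in a coding exon, and NetB, a netrin, with 134.08 and Syx1A, a syntaxin, with 133.58 in 3′ UTRs. Among 65 signalling genes, 2 did (3.08%), both in the 5′ UTR, namely the kinase gene Raf with 378.80 and wts, the Hippo pathway kinase, with 170.24. None of 54 chromatin and insulator genes and none of 165 ribosomal protein genes did. The lists are not complete, so each count, 0 included, holds for the listed genes alone, and other host genes may have such roles. JIL-1, a histone kinase gene with an exon peak of signal 290.01, was not counted among the 54. Gene length was not taken into account, and no test was made of these shares.

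The TSS limit cut through a continuous range of distances, while the signal limit fell in a gap. The exon peaks nearest above the TSS limit were in CG7668 at 508 bp, lncRNA:CR46060 at 510 bp and lncRNA:CR46204 at 524 bp. The exon summits nearest under it were in lncRNA:CR46110 at 499 bp, Pp2C1 at 497 bp and lncRNA:CR44619 at 495 bp. The 3 strongest exon peaks under the signal limit, nahoda, lncRNA:Vinr and CG8191, had 3580.8, 2391.4 and 1916.6. Above the limit, 5 exon summits more than 500 bp from a TSS were left out, in Mob2 with 5044.5, Sytalpha with 6381.5, CG2694 with 7060.8, Aptx with 9612.4 and gukh with 12224. The tagged gene itself, CG15514 on 3R, held no exon peak, and the nearest was in Fer1HCH, 525528 bp away.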

How the data were processed

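Peak lists from 3 biological replicates were used, on build dm6, with replicate numbers from the labels. Per the files' descriptions deposited with the samples, a replicate's 30000 entries were derived from its own alignment set against a control. The thresholded peaks were then selected by IDR, which keeps peaks of reproducible rank, using those lists together with one made from all replicates. The signal, a height against the control, was deposited by the authors with no scale between lists, so ranks were used across lists. The column read as −log10 q value in the narrowPeak layout of the deposited files is capped at a maximum and was not used for ranking. Which aligner, peak caller and IDR threshold were used is not given in the sources used here. Depth is unknown, since no list gives read counts. Lists on dm3 were not used here.

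Summits were classed with Ensembl 115 annotation (FlyBase release 6.54) on the Release 6 sequence, and a promoter (within 500 bp of a TSS) took precedence over an exon and an exon over an intron. Among exons, 5′ UTR came before 3′ UTR, then coding, then non-coding exons. Transposable elements did not count as genes. Motifs were exact matches on either strand wholly within 100 bp of the summit. Intervals on shares are 95% Clopper-Pearson intervals. The mean and SD of the 3 replicate lists are given, and exon and intron shares were compared by an exact sign-flip permutation test with Benjamini-Hochberg adjustment over 12 motifs. The motif search was tested on simulated data with planted matches, and the class assignment on annotated transcript starts. Python 3.11.15, pandas 2.3.3, NumPy 2.4.6, SciPy 1.17.1 and Matplotlib 3.10.9 were used.

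The peaks, motifs, gene lists and tests were chosen with earlier results of these data known. Named genes are the hosts of the 20 strongest exon peaks, the 4 strongest of each class, genes with 3 or more exon peaks, up to 3 peaks per rarer motif, the peaks nearest each limit, up to 4 genes per list, and CG15514. The 8 palindromes, jing, the peaks without support, the peaks with several motifs and the TSS distance of mamo were named after their values were seen.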

Additional observations from a re-analysis of the deposited data

How the results depend on the processing

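No paired analysis was possible because the 3 samples form 1 group, with no second group to pair them with; exon and intron peaks were compared within each replicate. Alternatives were run on the number of exon peaks, their support, the motif shares and the motif differences between exon and intron peaks. There were 157 exon peaks with a TSS limit of 1000 bp and 79 in the stronger 50% of the list. Support in all 3 replicates was 39.4% with summits within 50 bp, 80.9% over all 30000 entries, 62.2% by any overlap of intervals, and 55.7 to 66.7% in the remaining pair when 1 replicate was left out. The GAAC element was at 11.8% of exon peaks within 50 bp. The CTCF letters were at 11.4% in the stronger 50% of the list. In alternatives chosen after seeing the data, the GAAC element was at 5.28% of flanking windows and its palindrome at 3.25% of summits, and the CTCF letters were at 2.24% of flanking windows and 2.91% of windows under 40% G and C. The difference between exon and intron peaks changed sign for Zelda, from -0.10 percentage points to 0.257 within 50 bp, 0.851 among the strongest 4000 entries, and -0.230 to 0.00029 with 1 replicate left out, and for Initiator to 0.464 among the strongest 4000 entries. The causes were not tested. Elsewhere, 36 recomputed values of the main results and 126 of the single motifs stayed within their error or kept their sign, and 20 values of other single motifs left the interval of the share they were set against.

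Without read counts, neither depth nor the error of a single peak's height can be given. The fragment length limits how closely a summit marks a bound site, and the annotation decides which summits count as exonic.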
